A study of Mus musculus with 60 samples.

Results

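The Hoxc cluster is a row of 9 homeobox genes on mouse chromosome 15, Hoxc13, Hoxc12, Hoxc11, Hoxc10, Hoxc9, Hoxc8, Hoxc6, Hoxc5 and Hoxc4, all read from the same strand with Hoxc13 at the 5′ end. These 9 genes, of 20807 protein-coding genes on the autosomes, were examined together with the flank upstream of Hoxc13, which was divided into 24 of 246266 windows of 10 kb. On mm10 the gene span ran over chr15:102921103-103036852 (115.75 kb) and the flank over the 241 kb before it. The genes were chosen by a rule that used the deposited H3K27me3 peaks of these same samples, so the H3K27me3 values at the locus are given as a description and were not tested between genotypes. Peaks of the tagged histone were not part of that choice and were tested.

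HOX proteins are transcription factors that give cells their position along the body axis, and the genes of a cluster are used in the order in which they lie, with the 3′ genes used towards the head and the 5′ genes towards the tail. Polycomb Repressive Complex 2 (PRC2) places H3K27me3, a mark of silenced genes, and silent Hox clusters are among the best known of its targets, where the mark forms broad blocks that spread over genes and the DNA between them. Mesenchymal cells keep a HOX code from the body site they came from, so part of a cluster can be open and part covered by the mark.

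C3H 10T1/2 cells, a mouse line of mesenchymal progenitors, had been transduced with a lentivirus in which the EF1 promoter drove a human H3.1 cDNA with C-terminal HA and FLAG tags, followed by puromycin selection of pools. The 5 genotypes were wild type (H3WT) and single arginine-to-cysteine changes in the N-terminal tail (H3R2C, H3R8C, H3R17C and H3R26C), and in every genotype, H3WT included, the untagged histone H3 of the cell was still made. CUT&RUN, which sequences the fragments that an antibody-guided nuclease cuts from chromatin, had been run with 4 antibodies or controls in 3 labelled replicates of each genotype (60 samples), and the 30 samples with anti-H3K27me3 or anti-HA were used here. The study describes its CUT&RUN replicates as independent biologic replicates. Nothing in the labels says that they came from separate transductions, so the spread between them may not include that between transductions.

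In each group a pair of the 3 labelled replicates shared the very same peak list, which was counted once. The H3R17C replicate 1 list labelled anti-H3K27me3 was left out because the name of its file gave another mark. That left 9 H3K27me3 lists (2 per genotype, 1 for H3R17C) and 10 HA lists (2 per genotype). The H3K27me3 lists held 20077 to 24598 peaks that covered 2.36% to 4.79% of the main chromosomes, and the HA lists 15344 to 52083 peaks that covered 1.57% to 7.83%. The read depth behind the lists was not analysed here, and the spread between lists is the only error given. Chromosome 15 as a whole carried more peaks than the autosomes in general. Its covered percent was 1.17 to 1.19 times that of all autosomes in the H3WT H3K27me3 lists, 1.65 and 1.78 times in H3R2C, and 1.18 to 1.31 times in the other mutants. For HA the ratio was 2.07 and 2.08 in H3WT, 3.72 and 4.15 in H3R2C, and 2.12 to 2.87 in the other mutants. The part of chromosome 15 as a whole in the values below was not tested. H3K27me3 peaks lay over 0 of 12 start sites of mesenchymal genes (Col1a1, Prrx1, Pdgfra and others) in all 9 lists, over all 4 neural genes (Sox1, Pax6, Neurog1 and Olig2) in the 7 lists other than H3R2C, and over 3 and 2 of them in the H3R2C lists. Of the other marker lists, 0 of 4 epithelial start sites, 1 or 2 of 4 blood start sites and 1 or 2 of 2 liver start sites had a peak. Among 6 housekeeping genes the only start site with a peak was that of Rpl3, in H3WT replicate 3. Peaks were absent from the start sites of a list of 16 genes (genes of PRC1 and PRC2, and Cbx5, which belongs to neither), except Cbx8 in H3R26C replicates 1 and 2.

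The following 4 stretches of DNA show what the peaks lay on. The first is the place in an intron of Hoxc9, chr15:102978751-102978950, where the longest peak of the gene span had its highest signal in both H3WT lists, both H3R8C lists, the H3R17C list and H3R26C replicates 1 and 2. The second is the place of highest signal in both H3R2C lists, in an intron of Hoxc4 at chr15:103031251-103031400. The third, chr15:102745126-102745325, lies in the block of the flank that had a peak in all 9 lists. The last, chr15:102775401-102775550, is the place of highest signal of an H3R8C replicate 3 peak that begins in a window of the flank covered in H3R8C alone. None of the 4 overlaps an annotated exon. All are on the plus strand and are written 5′ to 3′ from the RefSeq genome GRCm38.p6, the same build as mm10, with each CG dinucleotide in capitals.
Hoxc9 intron: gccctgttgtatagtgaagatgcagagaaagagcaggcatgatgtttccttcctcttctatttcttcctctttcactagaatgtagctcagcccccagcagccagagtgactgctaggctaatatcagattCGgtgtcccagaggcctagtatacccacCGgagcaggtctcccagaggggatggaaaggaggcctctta
Hoxc4 intron: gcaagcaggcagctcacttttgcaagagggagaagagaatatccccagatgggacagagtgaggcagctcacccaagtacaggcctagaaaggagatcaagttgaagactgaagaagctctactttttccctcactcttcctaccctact
Upstream flank: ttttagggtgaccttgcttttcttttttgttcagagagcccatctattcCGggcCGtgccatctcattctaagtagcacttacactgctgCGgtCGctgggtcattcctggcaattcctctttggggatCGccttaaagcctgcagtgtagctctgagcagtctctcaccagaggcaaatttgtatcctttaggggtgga
Flank, H3R8C alone: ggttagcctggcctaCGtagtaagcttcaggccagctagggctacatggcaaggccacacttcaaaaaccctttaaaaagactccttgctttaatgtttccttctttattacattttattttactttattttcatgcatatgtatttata

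The Hoxc9 stretch held 2 CG dinucleotides in 200 bases, the Hoxc4 intron 0 in 150, the flank stretch common to all lists 5 in 200 and the H3R8C stretch 1 in 150. Among the members the RefSeq promoter table held Hoxc4, whose promoter (250 bases before to 50 after a coding start) had 9, against a median of 7 over the 32851 promoters of the RefSeq table, of which 45.8% held at least as many. The places of highest H3K27me3 signal in the gene span were thus poorer in CG than that promoter. On a wider scale the gene span was rich in CG, with 21.5 per kb against a median of 7.3 over 10059 windows of 10 kb on chromosome 15, and 97.5% of those windows lay below it. The stretch from Hoxc13 to Hoxc10 had 22.7 per kb and the stretch from Hoxc9 to Hoxc4 20.1 per kb. The upstream flank had 10.4 per kb, above 71.3% of the windows.

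**Figure D1:**
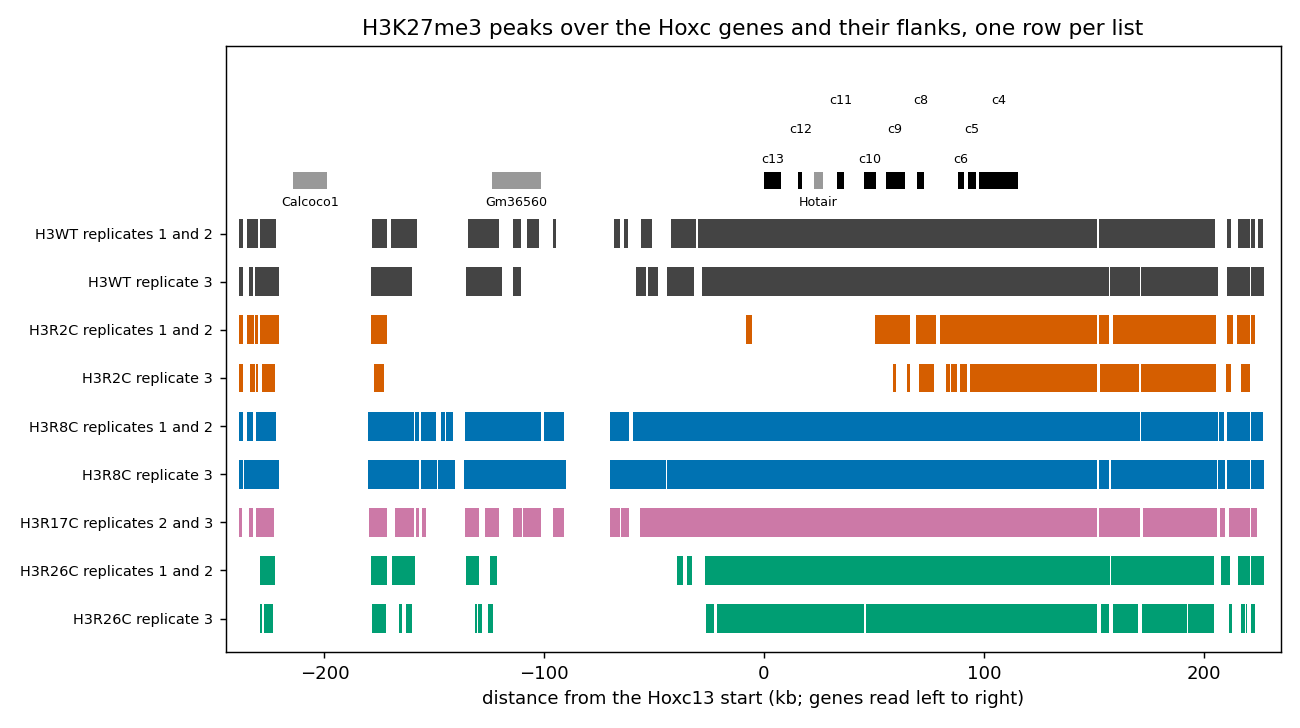
H3K27me3 peaks of the 9 lists (rows, coloured by genotype) against distance from the Hoxc13 start in kb, with the coding span of each Hoxc gene in black (c13 to c4) and Calcoco1, Gm36560 and Hotair in grey. The H3R2C rows are almost empty over c13 to c10 (0.183% and 0% covered) and over most of the flank, whereas the H3R8C rows cover the most of the flank (67% and 71.4%).

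In H3WT, 1 unbroken peak covered all 9 Hoxc genes. It ran from 29.8 kb upstream of the Hoxc13 start over 181.5 kb in replicates 1 and 2, and from 28.1 kb upstream over 184.9 kb in replicate 3. In each H3WT list this was the widest of all peaks (22083 and 20543) and the third by total signal, the sum of coverage along a peak. Its mean coverage was 17.7 and 16.6, and its highest coverage 58 and 55. Because SEACR gives 1 total per peak, the coverage of a gene inside such a peak is known only as the average of the whole peak. H3R8C, H3R17C and H3R26C replicates 1 and 2 also had 1 peak over the whole gene span, 231 and 196 kb wide in H3R8C, 207.85 kb in H3R17C and 184 kb in H3R26C. H3R26C replicate 3, the list with the lowest coverage, had 3 peaks over the gene span that left gaps of under 1 kb at Hoxc10 and Hoxc5, and 99.1% of the span stayed covered.

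In H3R2C the peaks began inside the cluster. The gene span was covered over 51.9% in replicates 1 and 2 and 33.9% in replicate 3, a mean of 42.9% ± 12.7 (SD, n = 2), against 100% in both H3WT lists. The uncovered part lay mainly at the 5′ end. From the Hoxc13 start to the Hoxc10 end (50.8 kb, a division made after the values were seen), H3R2C peaks covered 0.183% and 0%, against 98.7% to 100% in the 7 other lists. From Hoxc9 to Hoxc4 (60.4 kb) they covered 91.7% and 64.9%. Beyond Hoxc4, over the 116 kb up to the end of Smug1, the next protein-coding gene, they covered 83.9% and 80.7%, beside 85.7% and 90.8% in H3WT and 76.4% to 93.1% in the other mutants. The H3R2C values there lay below both H3WT lists and overlapped only those of H3R26C, whose replicate 3 had the 76.4%. The values from Hoxc13 to Hoxc10 overlapped those of no other genotype.

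**Figure D2:**
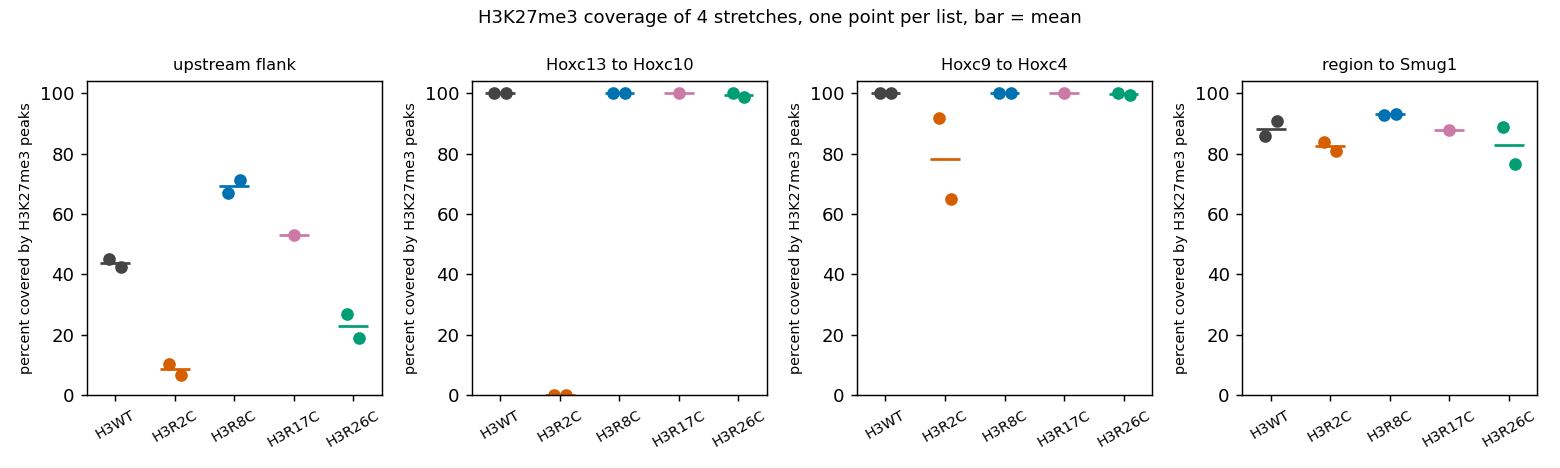
Percent of 4 stretches covered by H3K27me3 peaks in each genotype, with a point per list and a bar at the mean. H3R2C lies at 0.183% and 0% from Hoxc13 to Hoxc10 but at 83.9% and 80.7% in the region up to Smug1, and the flank spreads from 6.66% in H3R2C to 71.4% in H3R8C.

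By gene, the percent of length under a peak in H3R2C was lowest at the 5′ genes and complete at Hoxc4. This percent does not measure the signal inside a peak. Hoxc13, which acts in hair and nail, Hoxc12 and Hoxc11 had 0% of their length under a peak in both H3R2C lists. Hoxc10, a gene of the lumbar region and hindlimb, had 1.82% and 0%. Hoxc9, a thoracic gene, was covered over 100% in replicates 1 and 2 and 17.3% in replicate 3, so the lists straddled almost the whole range there. Its neighbour Hoxc8 was covered over 100% and 68.8%. For Hoxc6, which is used at the boundary of neck and thorax, the values were 83.9% and 46.1%. Hoxc4, the 3′ end of the cluster and a gene of the neck, was covered over 100% in both H3R2C lists. Hoxc5 needs care, because its longest annotated transcript starts within Hoxc10 and runs across Hoxc9, Hoxc8 and Hoxc6. Over the whole Hoxc5 gene H3R2C covered 81.3% and 39.6%, and over the span of its coding transcript 100% and 67.2%. In the 7 other lists all 9 genes were covered completely, except Hoxc10 (88.1%) and Hoxc5 (99.3%) in H3R26C replicate 3.

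**Figure D3:**
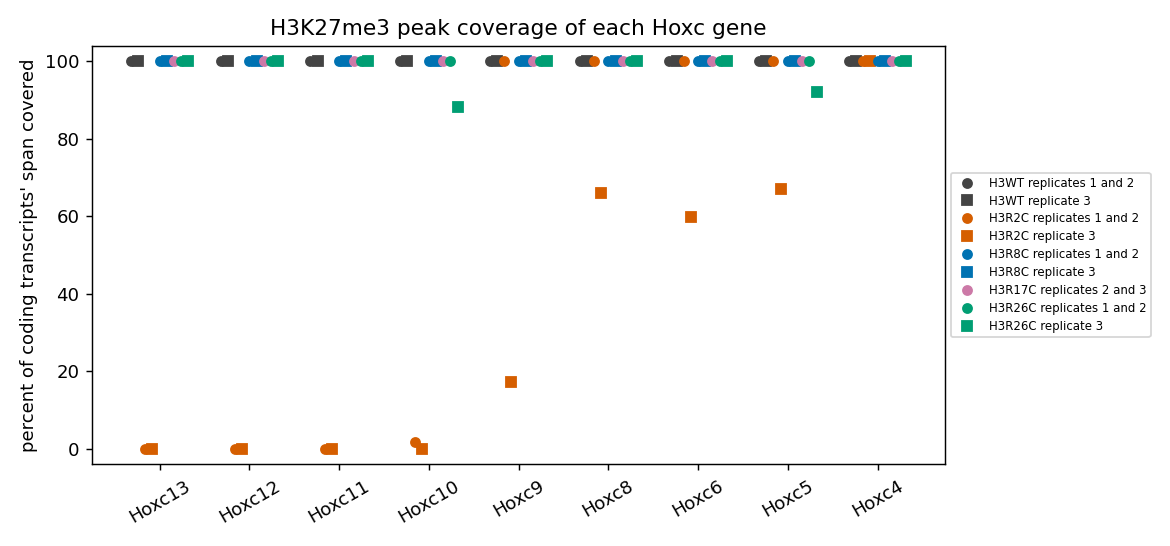
Percent of the coding span of each Hoxc gene (5′ to 3′ from left to right) covered by H3K27me3 peaks, with circles for lists of shared replicates and squares for replicate 3. Only H3R2C points lie below 80%, from 0% at Hoxc13 in both lists to 100% at Hoxc4 in both.

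A start site counted as covered when a peak touched the 1 kb on either side of the most 5′ annotated start. All 9 Hoxc start sites were covered in every list of H3WT, H3R8C, H3R17C and H3R26C, and 2 of 9 (Hoxc6 and Hoxc4) in both lists of H3R2C. Over all protein-coding genes of the autosomes the share covered in every list was 8.68% in H3WT, 7.11% in H3R2C, 9.5% in H3R8C, 8.54% in H3R17C and 8.43% in H3R26C. In H3R2C replicates 1 and 2 a further 2 start sites were covered, those of Hoxc9 and Hoxc8. The 5 start sites with no peak in either H3R2C list were those of Hoxc13, Hoxc12, Hoxc11, Hoxc10 and Hoxc5. Of the start sites covered in both H3WT lists, 24% had no peak in any list of H3R2C, 16% in H3R17C, 9.13% in H3R26C and 3.93% in H3R8C, and the Hoxc counts were 5, 0, 0 and 0 of 9. Since this contrast was used to choose the genes, the counts are not read against those shares.

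Distances give the picture without the limit of 1 kb. From the Hoxc10 start the nearest H3R2C peak lay 5.01 and 13.1 kb away, and from the Hoxc11 start 17.4 and 25.4 kb. The member closest to the limit was Hoxc8 in H3R2C replicate 3, with its nearest peak 1.09 kb from the start, just outside, while in replicates 1 and 2 a peak covered 57.8% of the Hoxc8 window. For Hoxc9 in replicate 3 the distance was 3.41 kb. At the coding start of Hoxc5, in place of the long transcript, both H3R2C lists had a peak, with 100% and 34.3% of the window covered, and at the coding start of Hoxc6 the shares were 100% and 15%. The missing H3R2C peak at Hoxc5 was thus at the start of the long transcript and not at the coding start.

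Hotair, a long noncoding RNA read against the HOXC genes from between Hoxc12 and Hoxc11, was covered over 100% in 7 lists and 0% in both H3R2C lists. The cluster also holds microRNA genes, added after the values were seen because they lie where the H3R2C peaks begin and break. Mir196a-2 lies between Hoxc10 and Hoxc9 at chr15:102973350-102973434 and gives miR-196a, which targets Hox transcripts. Mir615 lies in an intron of Hoxc5. Both had a peak in 8 of 9 lists and none in H3R2C replicate 3. Their main mature RNAs in RefSeq, with the seed (bases 2 to 8) in capitals, are as follows.
miR-196a-5p: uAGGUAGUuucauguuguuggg
miR-615-3p: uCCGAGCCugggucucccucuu

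Where the H3R2C lists did have peaks, coverage as deposited was highest towards the 3′ end of the cluster. The peak over the Hoxc9 start in replicates 1 and 2 had a mean coverage of 5.96 and a highest of 18. The peak over Hoxc8 in the same list had 9.69 and 24, and the peak over Hoxc4 had 15.1 and 41. In replicate 3 the peak over Hoxc4 had a mean coverage of 9.05 and a highest of 25, and the peaks over the coding starts of Hoxc6 and Hoxc5 had 4.07 and 4.43. So in both lists the highest coverage lay at Hoxc4. The place of the maximum was 110 kb from the Hoxc13 start in both H3R2C lists and 57.6 to 57.8 kb in the 6 lists whose gene span was under 1 peak. The Hoxc4 peak was among the large peaks of the H3R2C lists, the fifth and the sixth by total signal of 23144 and 23168.

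To compare signal between lists, column 4 of each list was shared out over the span, expressed per kb and divided by the median over the 5401 regions that had a peak in all 9 lists. This median ranged from 18050 in H3R26C replicate 3 to 54300 in H3R2C replicates 1 and 2. The scaled signal of the gene span was 0.428 and 0.393 per kb in H3WT, 0.457 and 0.423 in H3R8C, 0.407 in H3R17C and 0.410 and 0.504 in H3R26C. The H3R2C lists had 0.114 and 0.0965. On the log2(scaled signal + 0.05) scale H3R2C differed from H3WT by -1.57, whereas H3R8C (0.089), H3R17C (-0.0099) and H3R26C (0.134) differed by no more than the spread between lists. The size of the H3R2C difference ran from -2.16 with the signal as deposited to -0.729 by maximum signal. The H3R26C difference turned negative with other scalings (-0.361 as deposited and -0.178 by median coverage). The list with the lowest coverage, H3R26C replicate 3, had the highest scaled signal of the gene span and peaks at all 9 starts. From Hoxc9 to Hoxc4 alone the scaled signal was 0.210 and 0.185 per kb in H3R2C and 0.393 to 0.519 in the other lists. Over the region up to Smug1 it was 0.197 and 0.249 in H3R2C and 0.251 to 0.348 in the other lists. For a peak that runs past a stretch, these values rest on the average of the whole peak, and they were not tested. In a bulk profile, fewer cells with the block and less mark per cell cannot be told apart.

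In coverage of the upstream flank the 5 genotypes lay apart. It was covered over 45% and 42.5% in H3WT (43.7% ± 1.74, SD, n = 2), 67% and 71.4% in H3R8C (69.2% ± 3.11), 52.9% in the single H3R17C list, 26.8% and 18.9% in H3R26C (22.9% ± 5.57) and 10.5% and 6.66% in H3R2C (8.56% ± 2.7). No 2 genotypes overlapped, and the order was H3R8C, H3R17C, H3WT, H3R26C, H3R2C. The scaled signal kept that order at 0.198 and 0.170 per kb, 0.153, 0.103 and 0.0957, 0.0661 and 0.0677, and 0.0161 and 0.0157. On the log2(scaled signal + 0.05) scale the differences from H3WT were 0.65 in H3R8C, 0.45 in H3R17C, -0.35 in H3R26C and -1.18 in H3R2C. The sizes rest on the scaling and on the pseudocount of 0.05, which is larger than the H3R2C signal itself. With the signal as deposited the H3R2C difference was -2.82 and the H3R26C difference -1.08, and with a pseudocount of 0.25 they were -0.393 and -0.14. Between genotypes, genome coverage did not follow the same order. H3R2C replicates 1 and 2 covered the largest share of the main chromosomes (4.79%) and had the second lowest coverage of the flank. H3R26C replicate 3 covered the smallest (2.36%). Within every genotype with 2 lists, the list with more of the genome covered also had more of the flank covered. In H3R26C these lists covered 4.41% and 2.36% of the genome. The part of list size in the flank values was not tested.

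The flank changed in patches. Both H3WT lists had a peak in 15 of its 24 windows of 10 kb, and neither had a peak in 6. In H3R2C 11 of the 15 had no peak in any list, beside 12.4% of the autosomal windows that had a peak in both H3WT lists. In H3R26C it was 5 of 15, beside 11.4%. In H3R8C it was 0, beside 8.52%, and in H3R17C 0, beside 15.6%. Of the 6 windows without a peak in H3WT, H3R8C had a peak in both lists in 2, H3R17C in 1, H3R2C in 0 and H3R26C in 0. The same counts over the autosomes came to 0.573% for H3R8C, 0.729% for H3R17C, 1.52% for H3R2C and 0.914% for H3R26C. These shares belong to the contrast that chose the locus and nothing is read from them.

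The patches can be followed from far to near. At the far end, windows 2 and 7 had a peak in all 9 lists. They were rich in CG (19.5 and 21.7 per kb), but so was window 6 (22 per kb), which had no peak in any list. In window 7 (chr15:102740001-102750000) the coverage was 70.5% and 75% in H3WT and 73% and 46.5% in H3R2C. Window 10 (chr15:102770001-102780000) was covered only in H3R8C, over 73.5% and 95.5%. Windows 13 to 15 were covered over 91.5% to 100% in H3R8C, 37.5% to 93% in H3R17C, 0% to 59.5% in H3WT and 0% in H3R26C and H3R2C. The windows nearest the cluster, 23 and 24, were covered completely in 7 lists, while in H3R2C the only peak there was 2.6 kb wide and lay 5.55 kb from Hoxc13 in replicates 1 and 2.

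The flank holds few genes. Calcoco1, a coactivator and autophagy receptor gene, had 0% of its length covered in all 9 lists, as did Atp5g2 beyond the flank and Smug1 and Cbx5 on the other side. Gm36560, a long intergenic RNA gene of unknown function between them, was covered over 54.7% and 37.9% in H3WT and 100% in both H3R8C lists. In H3R17C it was covered over 69.8%, in H3R26C over 8.64% and 0.707%, and in H3R2C over 0% in both. Its coverage in the lists therefore followed the order of the flank as a whole. A peak touched the Smug1 start in H3R8C replicate 3 only.

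When peaks with gaps of up to 5 kb were joined, the block that held the largest part of the cluster began 42.4 and 58.3 kb upstream of Hoxc13 in H3WT. It began 70.2 and 69.9 kb upstream in H3R8C, 70 kb upstream in H3R17C, and 26.7 and 26.2 kb upstream in H3R26C. In H3R2C it began 50.7 and 82.7 kb downstream of the Hoxc13 start. These edges moved with the gap allowed. At 10 kb the H3WT block in replicates 1 and 2 began 68.3 kb upstream, within 2 kb of H3R8C, and at 1 kb the H3WT blocks began 29.8 and 28.1 kb upstream, within 4 kb of H3R26C replicates 1 and 2. In H3R2C the block began 80.3 and 93.9 kb downstream at 1 kb, and 50.7 and 58.7 kb downstream at 10 kb. With gaps of 5 kb the 3′ edge lay 89.1 to 112 kb past the Hoxc4 end in all 9 lists, H3R2C included (108 and 105 kb). With gaps of 1 kb it lay at 41.1 and 35.9 kb in H3R2C, 35.6 kb in H3R17C and 35.9 kb in H3R26C replicate 3, but at 89.3 and 90.8 kb in H3WT, so the 3′ edges of H3R2C and H3WT lay together only with the wider gaps.

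The other 3 Hox clusters were compared with the same lists. The Hoxb cluster was covered over 88.4% ± 1.04 (SD, n = 2) in H3R2C and 90.5% ± 1.08 in H3WT, and all 10 of its start sites had a peak in all 9 lists. The Hoxd cluster was covered over 53.0% ± 5.18 in H3R2C and 88.5% ± 2.09 in H3WT, with 6 and 3 of 9 start sites in H3R2C and 9 and 8 in H3WT. The Hoxa cluster had little of the mark in any genotype, 23.5% ± 6.17 in H3WT and 7.31% ± 3.83 in H3R2C, with 0 to 4 of 11 start sites covered. The H3R17C list was also low there, at 8.79%. In scaled signal the H3R2C mean was 0.256 of the H3WT mean at Hoxc, 0.46 at Hoxd, 0.824 at Hoxb and 0.179 at Hoxa, where the H3R17C ratio was 0.395. In H3R26C the same ratios were 1.11, 1.43, 1.33 and 1.11, so with this scaling none of the 4 clusters had a lower mean than in H3WT. The clusters share lists and controls, and the differences between them were not tested.

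**Figure D4:**
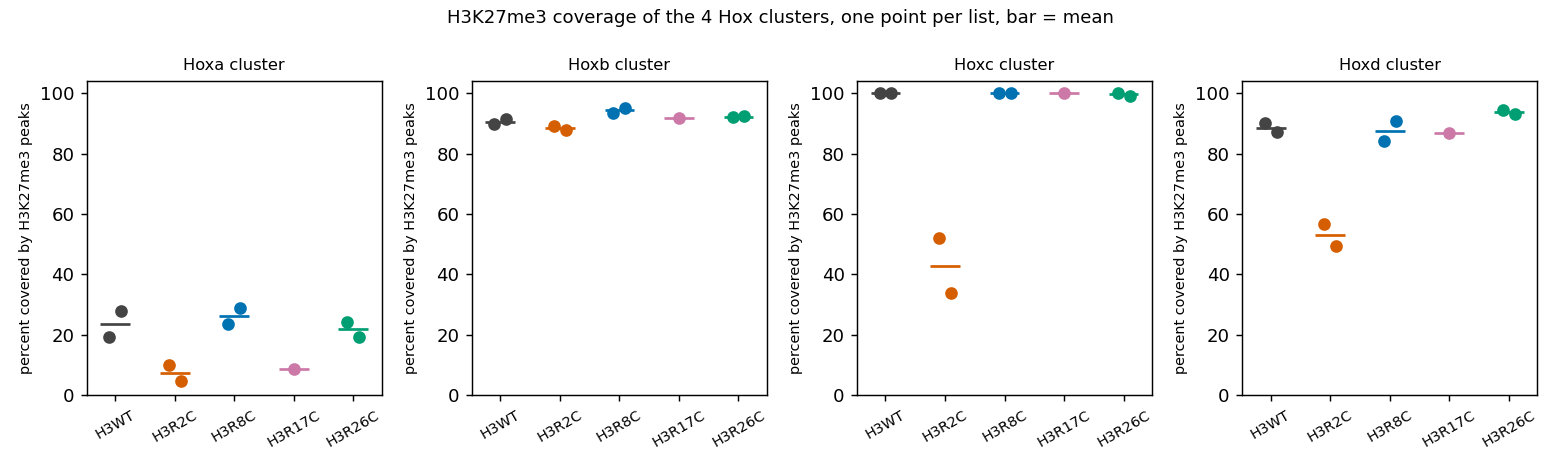
Percent of each Hox cluster (outermost gene ends) covered by H3K27me3 peaks, by genotype, with a point per list and a bar at the mean. H3R2C lies lowest at Hoxc (51.9% and 33.9%) and Hoxd (56.7% and 49.4%), and all 9 lists lie between 87.7% and 95% at Hoxb.

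The genes whose coverage over the 9 lists was most like that of the flank were Adam2, a sperm membrane protein gene (Pearson r = 0.934), Prodh2, an enzyme of hydroxyproline breakdown (0.933), Cmtm2a (0.921), Fam174b (0.92) and Tlr3, a sensor of double-stranded RNA (0.918). They were taken from 4105 genes of at least 5 kb whose coverage varied, of which 1 in 100 had r above 0.825, and they lay on chromosomes 14, 7 and 8. At Tlr3, H3WT was covered over 60.9% in both lists, H3R8C over 76.5% and 79%, H3R17C over 58.3%, H3R2C over 18.7% and 0%, and H3R26C over 0% in both. The 9 points share 4 pairs of lists from the same genotype, so the r values are a description.

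The HA peaks show where the tagged histone itself was found. They were thinner over the Hoxc genes than over the flank. Divided by the percent of the genome covered, the gene span stood at 0.883 times (H3R17C replicate 3) to 7.22 times (H3R2C replicate 3). The gene span was covered over 16.7% and 14.5% in H3WT, 7.86% and 22.4% in H3R2C, 9.89% and 2.81% in H3R8C, 2.12% and 1.51% in H3R17C, and 6.39% and 6.61% in H3R26C. The flank was covered over 64.1% and 58.5% in H3WT, 13.3% and 57.8% in H3R2C, 29.6% and 15.3% in H3R8C, 12.6% and 8.71% in H3R17C, and 36.3% and 22.2% in H3R26C. The lists of H3R2C lay far apart on both measures, and H3WT was above all mutants in the flank. By gene, Hoxc4 had HA peaks over part of its length in 8 of 10 lists (5.31% to 66.1%), Hoxc13 and Hoxc6 in 6 each, Hoxc10 and Hoxc9 in 3 each, and Hoxc12, Hoxc11 and Hoxc8 in 0. Hoxc5, whose long transcript runs across Hoxc9, Hoxc8 and Hoxc6, had some in 8.

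The tests of HA coverage were exact permutation tests over lists, two-sided, with p adjusted over the 4 tests by the Benjamini-Hochberg method. Lists were permuted as if independent, although those of a genotype may share a cell pool, so n counts lists and not pools. In the gene span H3R2C and H3R26C together (10.8% ± 7.74, SD, n = 4) differed from H3WT and H3R8C (11% ± 6.13, n = 4) by -0.151 percentage points (exact p = 1, adjusted p = 1). The 4 mutants (7.45% ± 6.72, n = 8) differed from H3WT (15.6% ± 1.56, n = 2) by -8.13 points (exact p = 0.156, adjusted p = 0.311). In the flank the first difference was -9.49 points (exact p = 0.571, adjusted p = 0.762). The second was -36.8 points, from 61.3% ± 3.9 in H3WT to 24.5% ± 16.4 in the mutants, with every mutant list below both H3WT lists, at the smallest p that 45 arrangements allow (exact p = 0.0222, adjusted p = 0.0889). None of the 4 passed the threshold of 0.05 after adjustment. The smallest p that the exact permutation tests allow was 0.0222 or 0.0286. Adjusted over 4 tests, a single full separation could not pass, so no absence of a difference is read from this. The comparison of H3R2C and H3R26C with H3WT and H3R8C left out H3R17C. The H3R17C lists covered the least of the gene span (2.12% and 1.51%) and of the flank (12.6% and 8.71%). The size and sign of that comparison therefore depend on this choice. The H3WT lists also covered the most of the genome (7.83% and 4.94%, beside 1.57% to 3.43% in the mutants). By the read totals that the study reports, the deepest anti-HA sample was of H3WT, but not every H3WT sample was deeper than every mutant sample. Those totals could not be tied to the lists, and the part of depth in these differences was not tested. Divided by the percent of the genome covered, the flank stood at 8.18 and 11.9 times in H3WT and 5.09 to 18.7 times in the mutants, which overlap, and the mutant mean was then higher by 0.20 (exact p, adjusted, 0.911).

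**Figure D5:**
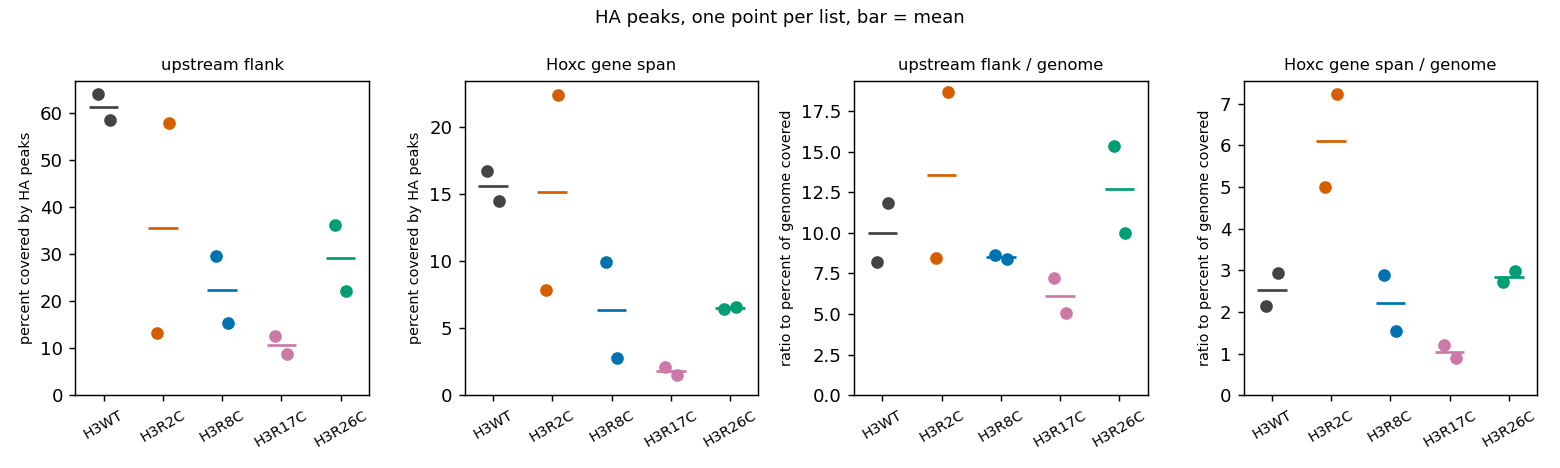
HA peaks over the flank and the gene span by genotype, as percent covered (left 2 panels) and as a ratio to the percent of the genome covered by the same list (right 2 panels), with a point per list and a bar at the mean. H3WT lies highest in flank coverage (64.1% and 58.5%). Once each list is divided by its genome coverage, H3WT overlaps H3R2C, H3R8C and H3R26C in the flank, and H3R17C lies lowest. In the gene span both H3R2C lists then lie above, and both H3R17C lists below, those of every other genotype.

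In H3R2C the stretch from Hoxc13 to Hoxc10 that was almost without H3K27me3 peaks did carry HA peaks, over 8.86% and 27.1% of its length. The same stretch had HA peaks over 14.7% and 23% in H3WT and 0% to 4.53% in the other mutants. In percent covered, H3R2C and H3WT thus overlapped there while their H3K27me3 coverage did not. Divided by the percent of the genome covered, they did not overlap. The stretch then stood at 5.63 and 8.74 times in H3R2C and at 1.87 and 4.66 times in H3WT. Chromosome 15 as a whole was also more covered by HA peaks in H3R2C, with the values given above. These comparisons were made after the values were seen and were not tested.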

How the data were processed

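Per the labels and the study's methods, reads were aligned by the authors to mm10 with Rsubread, and peaks were called with SEACR (version 1.3, stringent, normalised, numeric threshold 0.01). The deposited lists give, for each peak, a total signal (coverage summed over bases) and a maximum signal, as whole numbers not scaled to depth and with edges on a grid of 50 bp. With such a threshold the caller retains the strongest blocks of each library, so a weak block can be kept in a list and missed in another. Read filters and duplicate removal are not given in the sources used here.

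Gene positions were taken from GENCODE vM21. Percent covered, start windows (1 kb each side), joined blocks (gaps of up to 5 kb) and scaled signal (pseudocount 0.05) were computed with Python and numpy, checked on simulated data. HA coverage was tested by exact permutation over lists. The members, gene lists and tests were chosen with earlier results of these data known. The named genes were the 9 members, every gene of the flank and its neighbours, the other Hox genes as counts, 6 housekeeping genes, the list of 16 genes with Polycomb genes and Cbx5, the 5 genes most like the flank, and start sites of marker lists (mesenchymal, epithelial, neural, blood and liver). Mir196a-2 and Mir615 were added after their values were seen. The 30 samples profiled with IgG or anti-H3K4me3 were not used here. Sequences were matched to RefSeq by symbol (1 of 9 promoters: Hoxc4) or read by coordinates.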

Additional observations from a re-analysis of the deposited data

Results flagged for a closer look

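The list labelled H3R17C anti-H3K27me3 replicate 1, which entered no comparison because the name of its file gave another mark, had 5 peaks in the upstream flank. They covered 7.85 kb (3.26%), shared 0 bp with the peaks of the usable H3R17C list and lay at least 80.1 kb upstream of Hoxc13. The same list had 0 peaks over the 9 Hoxc genes, where the other H3R17C list was covered completely. Signal in a list that the report did not use is what drew attention to it. The groups held 1 or 2 independent lists, too few to look for a list that stands apart within a group.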

How the results depend on the processing

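The limits are few lists (1 for H3R17C, 2 for the other genotypes), no common depth, and 1 total per peak. Coverage of the gene span and flank and the number of start sites kept their direction or stayed within their spread in 94 of 101 alternative values, and the scaled signal stayed within its spread in 59 of 84. The cause of the moves below was not tested. Without H3R2C replicate 3 the start sites with a peak in H3R2C rose from 2 to 4, and without the other list the count stayed at 2. Divided by the percent of the genome covered, the gene span differed from H3WT by 5.42 in H3R26C, 5.97 in H3R17C and -0.356 in H3R8C, and divided by the percent of chromosome 15 (an alternative chosen after seeing the data) by 3.46, 2.93 and -2.10. Edges of the joined block moved by more than their spread in 10 of 20 values with gaps of 1 or 10 kb.

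Log2 differences of signal from H3WT moved with the scaling. As deposited they were -2.16 (H3R2C), -0.473 (H3R17C) and -0.361 (H3R26C) in the gene span, and -2.82 (H3R2C), 0.96 (H3R8C), 0.165 (H3R17C) and -1.08 (H3R26C) in the flank. Scaled by the median coverage of peaks they were -2.06, -0.321 and -0.178 in the gene span, and -2.42, 0.935, 0.30 and -0.832 in the flank. By maximum signal they were -0.729, 0.182 and -0.16 in the gene span, and -0.89 (H3R2C), 0.0715 (H3R8C), 0.182 (H3R17C) and -0.318 (H3R26C) in the flank. With a pseudocount of 0.25 they were -0.896 for H3R2C in the gene span, and -0.393, 0.313, 0.207 and -0.14 in the flank. The signs of all mutants in the flank, and of H3R2C in the gene span, held in all of these, and those of H3R26C and H3R17C in the gene span did not.

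The HA differences were not stable. Divided by genome coverage, the difference of H3R2C and H3R26C from H3WT and H3R8C was 2.11 in the gene span and 3.86 in the flank, and that of the 4 mutants from H3WT was 0.522 and 0.20. In the upper 50% of peaks the gene span differences were 4.44 and 0.0695 points. With all 3 labelled replicates, which counts shared lists again, the 4 mutants differed from H3WT by -8.79 points in the gene span (exact permutation, adjusted p = 0.0352) and by -38.3 in the flank (exact permutation, adjusted p = 0.00879). Leaving out 1 list at a time, the first difference in the gene span ran from -4.01 to 1.75 points and changed sign in 5 of 8 cases, among them 1.25, 1.32, 1.02 and 0.831. With the replicate block, which permutes within lists of the same number, the differences stayed at -0.151, -8.13, -9.49 and -36.8 points (exact permutation, adjusted p = 1, 0.4, 0.815 and 0.16), and no call changed. The labels do not say that a shared number marks a shared batch.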

Other observations

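Some peak edges fell on the same 50 bp step in lists of different genotypes. A peak ended 221.1 kb downstream of the Hoxc13 start in 7 of 9 H3K27me3 lists, and the next began at 221.7 kb in 6 of 9. Another edge, 151.7 kb downstream, was shared to the base by 4 of 9 lists, H3WT and H3R2C among them. In the flank a peak began 239 kb upstream of Hoxc13 in 6 of 9 lists.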
